A study of Homo sapiens with 23 samples.

Results

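Nuclear receptors are transcription factors that bind small fat-soluble ligands or, for the orphan members, act without a known one. This account covers the chromatin loops listed at 46 of their genes, out of 19974 protein-coding genes placed on the same build. The rule for the 46 genes, a list of receptor symbols, uses no measured value, and all were found in the gene table. A loop counted for a gene when at least 1 of its 5 kb bins overlapped the gene body widened by 10 kb (hg38). Loops came from T47D, an established human breast cancer line that makes the progesterone receptor, by HiChIP, which ligates pieces of DNA that meet in the nucleus. An antibody, here to the progesterone receptor, then pulls down the ligated pieces. The library labelled T30, titled PR5020 and taken here to have received the progestin R5020, and the library labelled T0 were 1 sample each. For the T30 library the labels state no dose and no time unit. Cells of the series were kept in medium without phenol red, with hormone-stripped serum, and then without serum before exposure, per the labels' protocols. T47D stands for no normal breast tissue, and a loop list cannot check the line's identity, since it holds no expression. Of 8 luminal breast markers, 5 had a loop in T30 and 6 in T0, where basal markers had 1 and 3 of 4, and markers of other tissues 1 and 1 of 4. Of all protein-coding genes 32.2% had a loop in T30 and 27.3% in T0. In T0 the luminal and basal shares were equal, so the counts do not tell the lineages apart.

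As background, most of these receptors bind DNA as dimers. Steroid receptors such as the progesterone and glucocorticoid receptors pair with themselves on palindromic elements, whereas receptors for retinoic acid, vitamin D, thyroid hormone, fatty acids and oxysterols pair with a retinoid X receptor on direct repeats. In breast cells the progesterone receptor acts with the estrogen receptor and with pioneer factors at enhancers that can lie far from the genes they serve.

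The T30 list held 9591 loops with 135538 contacts (read pairs joining 2 bins) and the T0 list 7075 loops with 127457 contacts. Both lists hold loops at a q-value of 0.05, and the depth of either library is unknown. With 1 library per condition no difference has a replicate check, and no test was made. Intervals are exact, at 95%, and cover counting error only; read pairs need not be independent molecules. Summed contacts of a gene cover the loops that each list holds there, which are seldom the same loops, so 2 sums are no measure of a change in contact. A gene without a listed loop may still have contacts below the authors' threshold. Contact and receptor binding cannot be told apart in these counts.

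At least 1 loop was listed at 19 of the 46 receptor genes in T30 and at 17 in T0. By the same rule 32.2% of all protein-coding genes had a loop in T30 and 27.3% in T0, against 41.3% and 37.0% of the receptor genes. A loop in both libraries was listed at 13 receptor genes, or 28.3%, against 17.9% of all genes. In T30 but not T0 were PPARA, NR1H3, RXRA, NR2C2, NR5A1 and NR5A2, and in T0 but not T30 were THRA, NR1D1, NR2C1 and NR2F2. The other 23 genes had no listed loop in either library. These shares describe 2 libraries and do not mark the receptor genes out.

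Partners of a gene are the different bins that its own bins were joined to. They were more numerous in T30 at 12 receptor genes, or 26.1%, against 21.4% of all genes. Partners were fewer in T30 at 7, or 15.2%, against 15.0% of all genes. When both lists were given the same number of loops, 17 members had a loop in T30 and 17 in T0, with more partners in T30 at 9 and fewer at 8. The median difference, T30 minus T0, was 0 for the receptor genes and 0 for all genes. Among genes with any loop it was 1 for the 23 receptor genes and 1 for the 8301 genes. The range among receptor genes was from -4 to 12, and RXRA alone gave the upper end. In all, 69 distinct loops with 1004 contacts lay at receptor genes in T30, and 48 with 1084 contacts in T0. That is 0.719% of the T30 list (0.560 to 0.910) and 0.678% of the T0 list (0.501 to 0.899), with overlapping intervals. A single loop, of T0, was shared by neighbouring members: it lay at THRA and NR1D1, which overlap on chromosome 17.

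**Figure D1:**
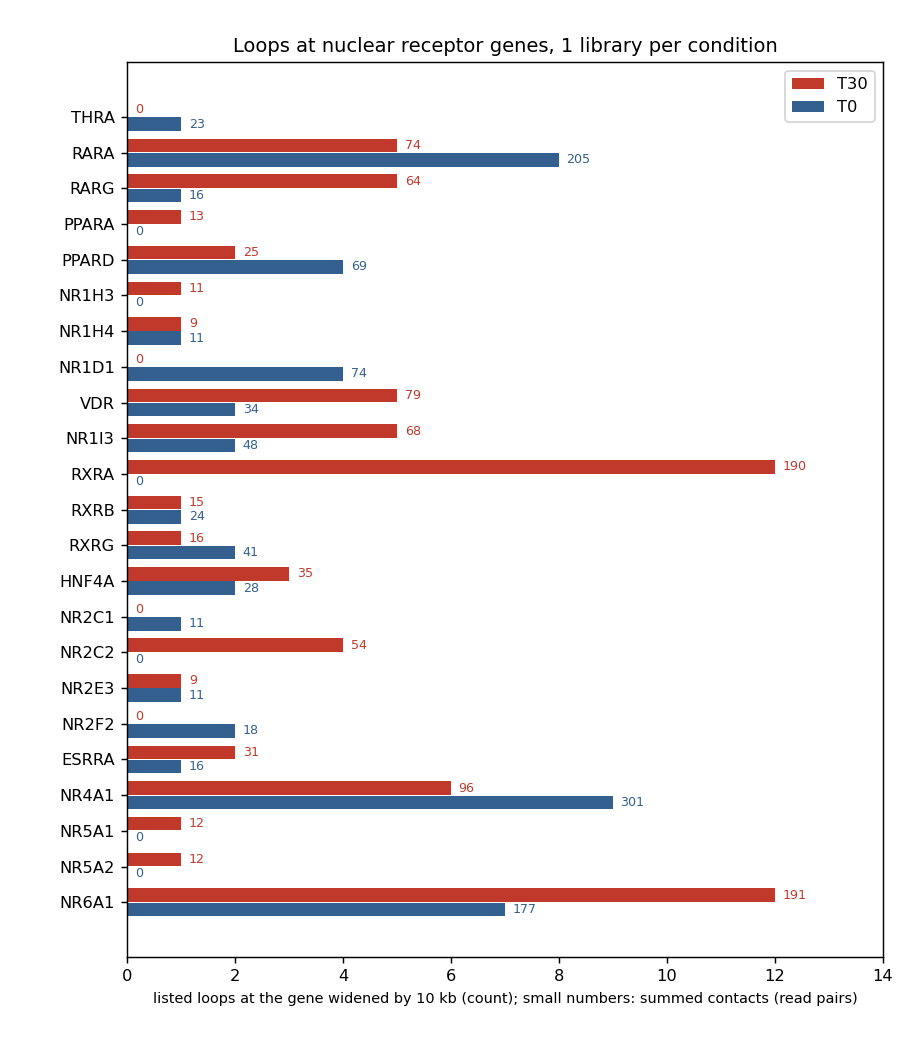
Listed loops (bar length, count) at each of the 23 nuclear receptor genes with a loop in either library, T30 above T0 for each gene, with summed contacts (read pairs) as the small numbers. RXRA has 12 loops in T30 and 0 in T0, while NR4A1 has 6 in T30 and 9 in T0.

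The retinoid X receptors are the common dimer partners of the family. Of their 3 widened genes, 3 had a loop in T30 and 2 in T0, against 32.2% and 27.3% of all protein-coding genes. RXRA (chr9:134326455-134440585) had 12 loops and 12 partners in T30, with 190 summed contacts (164 to 219), and no listed loop in T0. In T30, 8 of the 12 had both ends at the widened gene, with spans of 20 to 90 kb. Their contacts ran from 11 between the bins at 134375001 and 134440001 to 24 between those at 134355001 and 134375001. The bin at 134330001, just inside the upstream end of RXRA, joined 3 partners, at 134355001, 134365001 and 134420001. The longest loop spanned 275 kb, with 17 contacts, from a bin at 134165001 that overlaps no protein-coding gene to the downstream end of RXRA at 134440001.

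In T0 the nearest listed loop end lay 331 kb from RXRA, and none was listed when the gene was widened by 50 kb, where T30 had 14. None of the 12 T30 loops had fewer contacts than the weakest T0 loop listed at the same span. The weakest loop is a low mark, however. Each RXRA loop of 90 kb or less had fewer contacts than the median T0 loop of its span. Examples are 24 against 34 at 20 kb and 11 against 20 at 65 kb. Loops were also scarcer around RXRA in T0: within 2.5 Mb of the gene T30 listed 162 and T0 29, a ratio of 5.59. Chromosome 9 as a whole listed 691 in T30 and 272 in T0, a ratio of 2.54, against 1.31 for the rest of the genome. The part of this regional difference in the RXRA result was not tested.

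RXRG (chromosome 1) and RXRB (chromosome 6) were sparse by comparison. RXRG had 1 loop with 16 contacts in T30 and 2 loops with 41 contacts in T0. A 190 kb loop from its downstream end at 165400001 to 165590001 was listed in identical bins in both libraries, with 16 contacts in T30 and 28 in T0. RXRB had 1 loop in each library, of 15 contacts in T30 and 24 in T0, whose near end lay in RING1 or its neighbour HSD17B8 and not in RXRB itself, which had no loop when not widened.

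**Figure D2:**
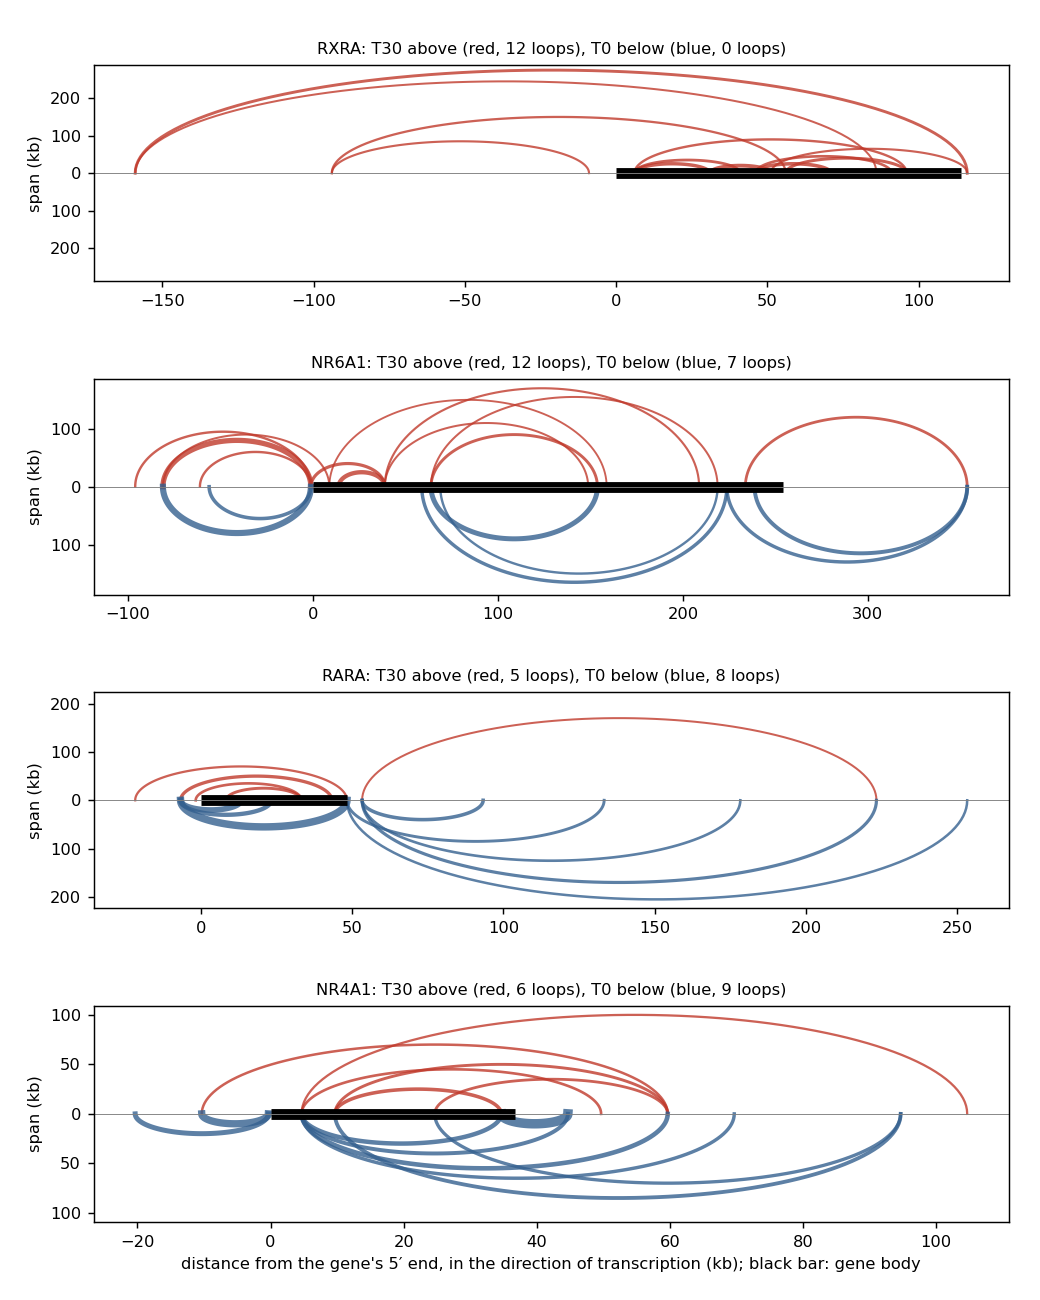
Loops at RXRA, NR6A1, RARA and NR4A1 as arcs joining their 2 bins, by distance from the 5′ end of the gene (kb, horizontal) with the span as height (kb), T30 above the line and T0 below it; thicker arcs have more contacts and the black bar is the gene body. RXRA has arcs in T30 alone, and RARA has longer arcs downstream of the gene in T0, where T30 has 1.

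Retinoic acid and thyroid hormone receptors showed differences in both directions. RARA, the retinoic acid receptor alpha gene (chr17:40309180-40357643), had 5 loops with 74 contacts (58.1 to 92.9) in T30 and 8 loops with 205 contacts (178 to 235) in T0. The loop with most contacts in both libraries started in CDC6, a replication licensing gene just upstream, at 40300001. It reached 40350001 with 20 contacts in T30 and 40355001 with 52 contacts in T0.

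The distal partners of RARA differed between the lists. In T0 the last RARA bin, at 40355001, and the next bin, at 40360001 in GJD3, joined TOP2A (topoisomerase), IGFBP4 (a binding protein of insulin-like growth factors), TNS4 (a tensin), CCR7 (a chemokine receptor) and a bin at 40530001. Those loops had 22, 17, 15, 14 and 19 contacts. In T30 only the last of the 5 was listed, with 10 contacts in the same bins. The longest RARA loop was 170 kb in T30 and 205 kb in T0. The direction for partners depended on the gene's limits: RARA had 7 partners in T30 and 9 in T0, but 5 in T30 and 3 in T0 when the gene body was not widened. Loops within 2.5 Mb of RARA numbered 149 in T30 and 137 in T0.

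RARG, the gamma receptor gene (chr12:53210569-53232209), had 5 loops with 64 contacts (49.3 to 81.7) in T30 and 1 loop with 16 contacts (9.15 to 26.0) in T0. Its T30 loop with most contacts, 17, joined the bin at 53210001 in RARG to ESPL1, which encodes separase, 75 kb away. The T0 loop left the same RARG bin for PFDN5 and MYG1, 10 kb beyond. The longest RARG loop of T30, of 160 kb and 10 contacts, reached SPRYD3. Within 2.5 Mb lay 77 loops in T30 and 114 in T0, so the difference at RARG ran against its surroundings. Of the 5 T30 loops, 2 left a bin at 53200001, in ITGB7 and outside RARG. When not widened, RARG had 3 loops in T30 and 1 in T0. At q under 0.01 RARG had 2 loops in T30 and 0 in T0.

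THRA, a thyroid hormone receptor gene, and NR1D1, which encodes the clock repressor REV-ERB alpha, lie tail to tail on chromosome 17 and overlap by 1074 bp. NR1D1 had no listed loop in T30 and 4 loops with 74 contacts (58.1 to 92.9) in T0. Of these 4, 3 ended at 40110001, outside the gene. When not widened, NR1D1 had 0 loops in T30 and 1 in T0. The strongest T0 loop, of 23 contacts, joined the NR1D1 start at 40100001 to MED24, a Mediator subunit gene, at 40045001. It is the loop that widening also gives to THRA. The longest NR1D1 loop, of 180 kb and 14 contacts, ran from 40110001 to CDC6, towards RARA. The nearest T30 loop end lay 87.8 kb from NR1D1, although 140 loops were listed within 2.5 Mb in T30 and 125 in T0. THRB and RARB, the beta genes of chromosome 3, had no listed loop, and at most 3 loops lay within 2.5 Mb of either.

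The 6 genes of the NR4A, NR5A and NR6A groups held 20 loops in T30 and 16 in T0, the most of the family's groups. NR6A1, germ cell nuclear factor (chr9:124517275-124771311), had 12 loops and 14 partners with 191 contacts (165 to 220) in T30, and 7 loops and 9 partners with 177 contacts (152 to 205) in T0. Its strongest loop joined the bin of the NR6A1 start at 124770001 to WDR38 at 124850001, with 35 contacts in T30 and 42 in T0. It had the most contacts of all receptor loops in T30. The longest was 170 kb in T30, with 11 contacts, and 165 kb in T0, with 21 contacts, and both lay within the gene.

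Some NR6A1 ends occurred in 1 list alone. The bin at 124730001 in NR6A1 joined 4 partners in T30 and none in T0, among them a loop of 28 contacts to 124755001 and one of 19 contacts to the start bin. By contrast, loops from the 3′ part of NR6A1 to PSMB7, a proteasome subunit gene, were listed with 16 contacts in T30, and with 25 and 21 contacts in T0. NR5A1, the neighbour that encodes steroidogenic factor 1, had 1 loop of 12 contacts in T30 and none in T0, but 3 in T30 and 4 in T0 when widened by 50 kb. That T30 loop spanned 60 kb, where the smallest T0 count listed was 13. NR5A2, liver receptor homolog 1 on chromosome 1, had 1 loop of 12 contacts in T30, spanning 210 kb, and none in T0.

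NR4A1 (chr12:52022832-52059503), an immediate early gene that encodes NUR77, stood on the other side. It had 6 loops with 96 contacts (77.8 to 117) in T30 and 9 loops with 301 contacts (268 to 337) in T0. The strongest T0 loop, of 68 contacts, spanned only 10 kb, from the 3′ end of NR4A1 at 52055001 to ATG101, an autophagy gene, and a second of 51 contacts spanned 10 kb from TAMALIN to the NR4A1 start. The T30 list holds no span under 20 kb. At 20 kb or more NR4A1 had 6 loops with 96 contacts in T30 and 7 loops with 182 contacts in T0. The strongest NR4A1 loop of T30, of 22 contacts, lay within the gene between 52030001 and 52055001, and the longest, of 100 kb and 12 contacts, ended where no protein-coding gene lies. The longest NR4A1 loop of T0 spanned 85 kb, with 24 contacts, to 52115001, which also holds none. Loops within 2.5 Mb of NR4A1 numbered 107 in T30 and 121 in T0. Widened by 50 kb, NR4A1 had 7 loops in T30 and 11 in T0, with 9 partners in each. Its relatives NR4A2 and NR4A3 had no listed loop.

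Among orphan receptors of the NR2 group, NR2C2, which encodes TR4, had 4 loops with 54 contacts (40.6 to 70.5) in T30 and none in T0. Of these, 2 joined the gene to FGD5, the longest over 100 kb with 10 contacts, and 2 lay within NR2C2, the strongest with 17 contacts. The 2 within the gene spanned 25 kb, with 15 and 17 contacts, where the smallest T0 count listed was 18. With lists of equal length NR2C2 had 1 loop in T30 and 0 in T0. The nearest T0 loop end lay 10.7 kb from NR2C2, just past the widening, and a gene widened by 50 kb had 7 loops in T30 and 4 in T0. Loops within 2.5 Mb of NR2C2 numbered 53 in T30 and 16 in T0. NR2C1, which encodes TR2, had none in T30 and 1 loop of 11 contacts and 265 kb in T0. HNF4A, an endoderm regulator, had 3 loops with 35 contacts in T30 and 2 with 28 in T0. Its strongest loop of T30 had 14 contacts over 35 kb, and its longest of T30, to OSER1, 9 contacts over 165 kb. In T0 a loop of 16 contacts over 170 kb was both. The HNF4A order turned when the gene was widened by 50 kb (4 in T30 and 5 in T0) and when the lists were of equal length (1 and 2). NR2F2, which encodes COUP-TFII, had none in T30 and 2 of 9 contacts each in T0. These NR2F2 loops, of 375 and 425 kb, were the longest at any receptor gene in T0. Neither was left at q under 0.01 or at 10 contacts or more, and that of 425 kb ended outside the gene. NR2E3, a photoreceptor gene, had 1 loop in each list, of 9 contacts and 355 kb in T30 and of 11 contacts and 350 kb in T0, at a bin 5.55 kb outside the gene. NR2E1, NR2F1, NR2F6 and HNF4G had none.

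Of 3 genes for receptors of vitamin D and foreign compounds, 2 had a loop in T30 and 2 in T0, against 32.2% and 27.3% of all protein-coding genes. These 2, VDR and NR1I3, had more partners in T30, as did 21.4% of all genes. VDR, the vitamin D receptor gene (chr12:47841537-47904994), had 5 loops with 79 contacts (62.5 to 98.5) in T30 and 2 loops with 34 contacts (23.5 to 47.5) in T0. The T30 loop of 20 contacts left the end of VDR with the higher coordinates, at 47900001, for a bin at 47945001, and 3 others ran from 47835001, below the gene, to HDAC7, a histone deacetylase gene, SLC48A1, a heme transporter gene, and ENDOU. The longest VDR loop of T30 was that to ENDOU, of 125 kb and 10 contacts. Both T0 loops left the next bin, at 47905001, for TMEM106C, with 20 contacts, and SENP1, a SUMO protease gene, with 14 contacts over 155 kb. NR1I3, the constitutive androstane receptor gene, had 5 loops with 68 contacts in T30 and 2 with 48 in T0. The loop between 161225001 and 161290001 was listed in both, with 17 contacts in T30 and 34 in T0, the most at NR1I3. The longest NR1I3 loop spanned 165 kb with 10 contacts in T30 and 160 kb with 14 contacts in T0, and neither reached a protein-coding gene. The longest T30 loop left a bin at 161215001, in FCER1G and outside NR1I3. The near bin of every other NR1I3 loop also holds TOMM40L, so none can be given to NR1I3 alone. NR1I2, which encodes the pregnane X receptor, had none.

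Of 6 genes for sensors of fatty acids, oxysterols and bile acids, 4 had a loop in T30 and 2 in T0. Among all protein-coding genes 32.2% had one in T30 and 27.3% in T0. The 6 genes held 5 loops in each library. PPARD had 2 loops with 25 contacts (16.2 to 36.9) in T30 and 4 with 69 contacts (53.7 to 87.3) in T0. Its T0 loops fanned from 35330001 and from the start bin at 35340001 to the stretch that holds FANCE, a DNA repair gene, and RPL10A, a ribosomal protein gene. The strongest, of 20 contacts, ended at 35445001 just before it, and the longest spanned 130 kb with 17 contacts. Widened by 50 kb, PPARD had 6 loops in each library. In T30 a loop of 13 contacts reached 35445001 from 35355001, within PPARD. PPARA had 1 loop of 13 contacts in T30, between bins 20 kb apart in the gene, and none in T0. The smallest T0 count listed at that span was 17. NR1H3, the liver X receptor alpha gene, had 1 of 11 contacts in T30, to the bin of SPI1 and MYBPC3, and none in T0. With lists of equal length NR1H3 had none in T30 either. NR1H4, the bile acid receptor gene, had 1 in each list, with 9 contacts in T30, to SLC17A8, and 11 in T0, to DEPDC4. PPARG and NR1H2 had none. PPARG lay 45.7 kb from the nearest T30 loop end and 476 kb from the nearest of T0.

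The list of receptor symbols leaves out the androgen receptor gene. Of the 8 steroid and estrogen-related receptor genes in it, 1 had a listed loop in T30 and the same 1 in T0, against 32.2% and 27.3% of all protein-coding genes. That gene was ESRRA, an orphan receptor of energy metabolism, with 2 loops and 31 contacts (21.1 to 44.0) in T30 and 1 loop of 16 contacts (9.15 to 26.0) in T0. Its T30 loop of 20 contacts and the T0 loop both ended at 64300001, in KCNK4 and CATSPERZ beside ESRRA. That bin joined BAD and GPR137 in T30 and PLCB3 in T0. A 45 kb loop of 11 contacts in T30 left ESRRA itself and reached CCDC88B and RPS6KA4. No loop was listed in either library at ESR1 and ESR2 (estrogen receptors), PGR (the progesterone receptor, the target of the antibody), NR3C1 (the glucocorticoid receptor), NR3C2 (the mineralocorticoid receptor), ESRRB or ESRRG.

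The loop ends nearest to these steroid receptor genes lay far off. At PGR the distance was 175 kb in T30 and 4685 kb in T0, and at ESR1 327 kb in T30 and 2232 kb in T0. At NR3C1, with 41 loops in T30 and 40 in T0 within 2.5 Mb, it was 358 kb in T30 and 353 kb in T0. Around PGR the 2.5 Mb windows held 6 loops in T30 and 0 in T0, and around ESR1 8 in T30 and 1 in T0. The receptors without a DNA-binding domain, NR0B1 and NR0B2, and the clock receptors NR1D2, RORA and RORB, had no listed loop either.

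**Figure D3:**
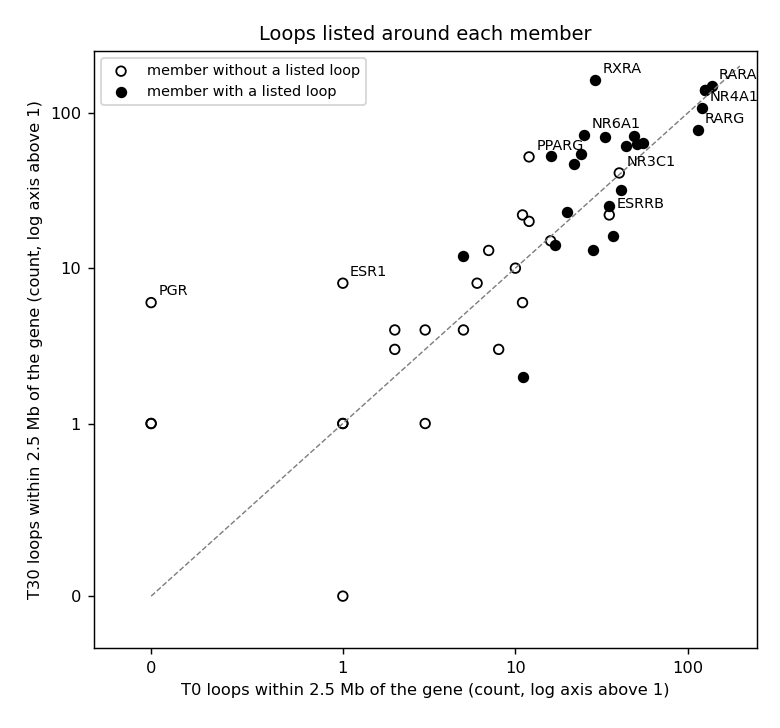
Loops listed within 2.5 Mb of each of the 46 receptor genes in T30 (vertical) and in T0 (horizontal), as counts on axes that are logarithmic above 1, with the line of equal counts; filled points are genes with a listed loop. RXRA lies far above the line (162 in T30 and 29 in T0), and most genes without a loop lie in the sparse lower left.

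Whether a receptor gene had a loop went with how many loops lay around it. Within 2.5 Mb, and leaving out each gene's own loops, the 23 genes with a loop had a median of 59 loops in T30 and 34 in T0. The 23 without had 6 in T30 and 5 in T0. Among those without a loop, PPARG had 52 in T30 and 12 in T0 around it, NR3C1 had 41 in T30 and 40 in T0, and ESRRB had 22 in T30 and 35 in T0. NR2F2 had loops in T0 with 9 others around it. By length, the longest genes had loops least often. Of the 17 receptor genes over 100 kb, 4 had a loop in T30 and 1 in T0, where 35.2% and 33.6% of 3351 protein-coding genes of that length did. Of the 17 between 20 and 100 kb, 11 had one in T30 and 10 in T0, against 33.1% and 27.8% of 7640 genes. Of the 12 under 20 kb, 4 had one in T30 and 6 in T0, against 30.2% and 24.6% of 8983.

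Loops at receptor genes had lower median spans than loops at any protein-coding gene, but in T30 the interval held the median of the latter. The median span was 65 kb in T30 (50 to 90) and 87.5 kb in T0 (65 to 130), where loops at any protein-coding gene had medians of 80 kb in T30 and 185 kb in T0. Spans of 200 kb or more made up 4 of 69 loops in T30, or 5.80%, and 6 of 48 in T0, or 12.5%. At any protein-coding gene they made up 18.6% in T30 and 46.5% in T0. Contacts per loop had a median of 13 in T30 (12 to 15) and 20 in T0 (16 to 23), against 13 and 15 at any protein-coding gene. These medians are not at equal span. Over the whole T0 list, loops of 85 and 90 kb had median contacts of 17 and 18. Both ends lay at the same receptor gene for 22 of 69 loops in T30, or 31.9%, and for 10 of 48 in T0, or 20.8%. At any protein-coding gene the shares were 33.5% in T30 and 20.8% in T0. In the gene body itself 17 of the 46 had a loop in T30, or 37.0%, and 12 in T0, or 26.1%, against 23.5% and 19.7% of all protein-coding genes.

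Short loops were listed at lower contacts in T30. Of spans from 20 to 50 kb, the T30 list held 3357 loops and the T0 list 434. At 25 kb the smallest listed count was 10 contacts in T30 and 18 in T0, with medians of 18 and 29. Of the 27 receptor loops of 50 kb or less in T30, 8 had fewer contacts than any T0 loop of the same span. Of all 69 receptor loops of T30, 10 did.

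**Figure D4:**
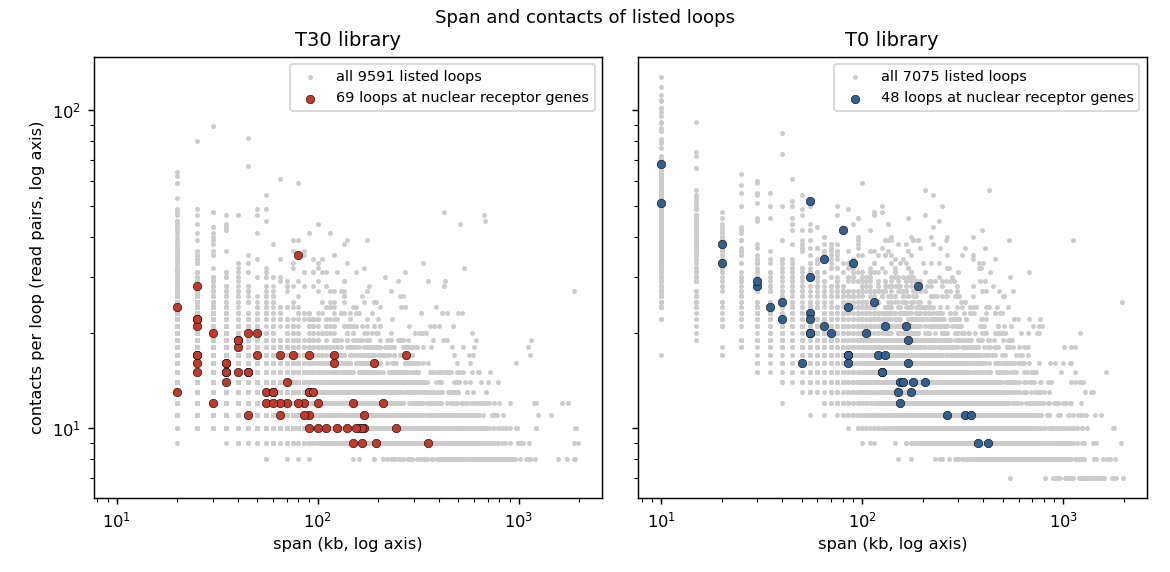
Contacts per loop (read pairs, log axis) against span (kb, log axis) in the T30 library (left) and the T0 library (right), with all listed loops in grey and loops at nuclear receptor genes in colour. Receptor loops have a median span of 65 kb in T30 and 87.5 kb in T0, and T30 holds none under 20 kb.

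Loops listed in both libraries, with the authors' merged cluster ranges overlapping at both ends, made 9 pairs at 5 receptor genes. They were 3 at NR6A1, 2 each at RARA and NR4A1, and 1 each at NR1I3 and RXRG, and 5 of the 9 had identical bins. All 9 had fewer contacts in T30, with a median ratio of 0.526 and a range from 0.385 to 0.833. Summed contacts were 160 in T30 and 287 in T0 (ratio 0.557, 0.457 to 0.679). Over all 1389 pairs of the lists the median ratio was 0.667 and 84.2% had fewer contacts in T30, so the direction was that of the lists as a whole. Relative to that median, the interval left out 1 for 1 of the 9, the CDC6 to RARA loop of 20 contacts in T30 and 52 in T0 (0.577, 0.326 to 0.983). The NR6A1 start to WDR38 loop had the highest ratio, 0.833 (0.517 to 1.34). Of the receptor loops, 14.5% of T30 and 18.8% of T0 overlapped a loop of the other list, against 16.4% and 22.2% of all loops.

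**Figure D5:**
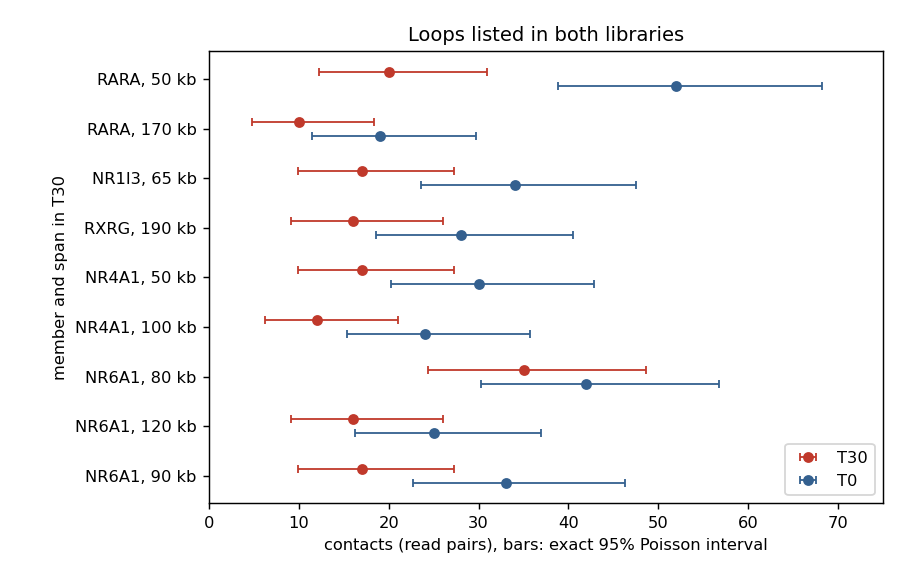
Contacts (read pairs) of the 9 loops at nuclear receptor genes listed in both libraries, T30 above T0 for each loop, with exact 95% Poisson intervals as bars. All 9 have fewer contacts in T30, and only the bars of the RARA loop with 20 contacts in T30 do not overlap.

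Start sites were known for 41 receptor genes, from 96 RefSeq promoter entries that include alternative starts. The bin of a start was at a loop end in 8 loops of 3 genes in T30 (RXRA, NR6A1 and RARA) and in 8 loops of 5 genes in T0 (NR6A1, PPARD, NR4A1, NR2C1 and NR1D1). That is 7.32% of the 41 in T30 and 12.2% in T0, against 9.95% in T30 and 9.60% in T0 of 15812 protein-coding genes with a start in the table. NR6A1 was the only gene with such a loop in both, 4 in T30 and 2 in T0. At RXRA the bin from 134375001 to 134380000 holds an internal start and ended 2 loops in T30, while the upstream start had none. Of 3 RARA starts, those at 40309180 and 40318245 ended 1 loop each in T30, and that at 40342166 ended 2, the far ends of the same loops. PPARD had none at its start bin in T30 and 2 in T0.

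The promoters of 4 such starts, at which the T30 and T0 lists differ, are shown as examples. Each is given as 300 bases of RefSeq GRCh38.p14 from 250 before to 50 after the start, read in the direction of transcription. Capitals mark AGAACA (or TGTTCT on the other strand), the core bound by the progesterone, glucocorticoid and mineralocorticoid receptors. They also mark AGGTCA (or TGACCT), the core bound by the estrogen receptors and most other family members.
RXRA internal start, plus strand, chr9:134379045-134379344: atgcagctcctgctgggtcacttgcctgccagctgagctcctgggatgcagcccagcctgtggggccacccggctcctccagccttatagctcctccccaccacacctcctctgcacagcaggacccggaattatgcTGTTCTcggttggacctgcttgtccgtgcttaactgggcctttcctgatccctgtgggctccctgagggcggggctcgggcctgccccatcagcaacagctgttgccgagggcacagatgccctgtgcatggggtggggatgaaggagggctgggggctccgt
RARA upstream start, plus strand, chr17:40308930-40309229: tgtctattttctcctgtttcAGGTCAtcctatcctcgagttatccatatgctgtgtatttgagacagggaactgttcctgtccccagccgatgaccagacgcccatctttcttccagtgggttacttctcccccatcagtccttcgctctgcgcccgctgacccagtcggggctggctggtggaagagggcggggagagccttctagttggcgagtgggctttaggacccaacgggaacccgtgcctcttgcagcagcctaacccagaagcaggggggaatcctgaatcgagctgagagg
NR6A1 start, minus strand, chr9:124771262-124771561: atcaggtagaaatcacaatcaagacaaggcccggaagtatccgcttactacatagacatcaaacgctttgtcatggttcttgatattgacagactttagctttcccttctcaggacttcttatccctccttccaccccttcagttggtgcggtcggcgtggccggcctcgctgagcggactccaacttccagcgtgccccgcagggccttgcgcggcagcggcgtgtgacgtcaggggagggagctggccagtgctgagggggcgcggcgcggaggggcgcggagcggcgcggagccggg
PPARD start, plus strand, chr6:35342308-35342607: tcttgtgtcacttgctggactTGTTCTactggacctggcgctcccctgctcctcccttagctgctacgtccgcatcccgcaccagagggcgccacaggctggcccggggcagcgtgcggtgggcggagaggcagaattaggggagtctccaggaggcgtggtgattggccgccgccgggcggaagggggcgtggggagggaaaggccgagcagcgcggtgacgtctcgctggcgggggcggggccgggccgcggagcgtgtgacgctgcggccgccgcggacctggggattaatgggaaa

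Among these 4, RXRA and PPARD each hold AGAACA, on the minus strand of the printed sequence, RARA holds AGGTCA, and NR6A1 holds neither. The lists also differed at starts of NR4A1, NR2C1 and NR1D1, whose promoters hold neither. The 4 shown are therefore no measure of how often such starts hold a core. AGAACA was found in 14 of the 96 receptor promoters, or 14.6%, and in 14.8% of all 35116 promoters of the table. AGGTCA was found in 16, or 16.7%, against 13.8%, and TGTTTAC, the forkhead core, in 3, or 3.13%, against 3.42%. GNACA followed after 3 bases by TGTNC, the steroid palindrome, was in none of the 96, against 0.390% of all. GGTCA followed after 3 bases by TGACC, the estrogen palindrome, was in none, against 0.0570%; an AGGTCA match can lie within it. Matches were exact, on both strands, in a window much smaller than the 5 kb bin, and say nothing of binding elsewhere in the bin.

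Genes that work with the receptors were described from 3 further lists, to be read beside the shares of all genes given above: 32.2% with a loop in T30 and 27.3% in T0, 21.4% with more partners in T30 and 15.0% with fewer. Of 11 steroid receptor chaperone genes, 6 had a loop in T30 and 7 in T0, with more partners in T30 at 4 and fewer at 5. FKBP5, a co-chaperone gene, had 16 loops in T30 and 7 in T0, and DNAJB1, a heat shock gene, had 3 in T30 and 1 in T0. Other heat shock genes of the list were HSP90AA1 (0 in T30 and 2 in T0), HSP90AB1 (1 and 3), HSPA8 (1 and 3) and HSPA4 (0 and 1). Of 20 genes that make, bind or break down receptor ligands, 10 had a loop in T30 and 8 in T0, with more partners at 6 and fewer at 5. HSD11B2, which inactivates cortisol, had 3 loops in T30 and 0 in T0, CYP26A1, which breaks down retinoic acid, 2 and 0, CRABP2, which carries it, 3 and 1. HSD17B2, an enzyme that inactivates estradiol, had 3 loops in T30 and 5 in T0, CYP26B1, which also breaks down retinoic acid, 0 and 1, CYP24A1, which breaks down vitamin D, 0 and 1, and the retinoid enzymes DHRS3 and ALDH1A3 1 and 2 each.

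Of 15 coregulator genes, 6 had a loop in T30 and 8 in T0, with more partners in T30 at 4 and fewer at 4. PPARGC1B, a coactivator, had 10 loops in T30 and 6 in T0. CARM1, an arginine methyltransferase, had 1 in T30 and 5 in T0, and NCOA3, a steroid receptor coactivator, 0 and 2. The median difference in partners was 0 in each of the 3 lists, as for all genes.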

How the data were processed

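Loop lists of 2 libraries were read; the other 21 samples of the series were not analysed here. A contact value is a raw count in the deposited lists, the whole number of read pairs that join one 5 kb bin to another. Each loop's p-value and q-value come from the authors' contact model with bias terms, per the file headers, and the files' names give a q of 0.05 and merging of near contacts. The deposited fraction for each cluster entered no result. The submitters' processing notes name Bowtie, hg38 and GRCh38, with no role; the sources used here give no other settings and say nothing of pooling.

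Genes came from a RefSeq table of GRCh38.p14, with start sites from its promoter table, in which 41 of 46 members matched. Protein sequences, and so DNA-binding domains, were not used here. Loops, partners and contacts were counted per gene (body widened by 10 kb) over 19974 protein-coding genes. Matched loops are the nearest pairs with overlapping cluster ranges (at least 1 bp), each loop used in 1 pair. Count intervals are exact Poisson, those of shares and ratios exact binomial (Clopper-Pearson), and those of medians come from order statistics, all at 95%; loops that share an end are not independent. All members are accounted for; for those with several loops, the loop with most contacts and the longest are named, with genes at the far bin where it holds any. Members, lists and rules were chosen with earlier results of these data known. The counting was checked on simulated loops. Scripts ran in Python 3.11.15 with scipy 1.17.1, pandas 2.3.3 and numpy 2.4.6, and figures were drawn in matplotlib 3.10.9.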

Additional observations from a re-analysis of the deposited data

How the results depend on the processing

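No paired analysis was possible because each condition had 1 HiChIP library, and leaving out a replicate was not possible for the same reason. Settings tried were gene bodies not widened or widened by 2500 bp or 50 kb, bins that hold a gene end, q under 0.01, at least 10 contacts, spans of at least 20 kb, lists of equal length (7075 loops) and cluster ranges in place of bins. Leaving out the 5 members on chromosome 9 was chosen after seeing the data. Of 106 values for the counts, medians and matched loops, 92 stayed within 1.5 times the reported count or within the interval of the reported value. With bins that hold a gene end, 9 members had a loop in T30 and 10 in T0, 6 had more partners and 6 fewer, loops numbered 18 in T30 and 18 in T0, and median contacts in T30 were 16. At q under 0.01, loops numbered 40 in T30 and 27 in T0, with median contacts of 16 in T30. With genes widened by 50 kb, 4 members had fewer partners. Without chromosome 9, loops numbered 44 in T30 and 41 in T0, against 69 and 48, so RXRA and NR6A1 carried most of the excess. With both bins identical 5 pairs were matched, and with both within 10 kb 19. Scaled by the median ratio, the contact ratio of matched loops was 0.836 in place of 0.557. For single members, the T30 minus T0 difference in loops changed sign 3 times in 204: at HNF4A with genes widened by 50 kb (-1) and with lists of equal length (-1), and at NR5A1 with genes widened by 50 kb (-1). In 23 further cases no loop was left in either library. At RXRA, T0 had no loop under any of these settings. The unknown depth limits what a missing loop can show.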
